A study of Mus musculus with 71 samples.

Results

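Gene expression in the prefrontal cortex (PFC) was compared between mice that had self-administered cocaine and mice that had self-administered saline, 28 days after the last session. The comparison rests on the 12 RNA-seq libraries whose labels name the PFC and 28 days of abstinence, 6 cocaine and 6 saline, of 71 libraries in the series, and no measured value was used to choose them. The other libraries come from the nucleus accumbens (NAc) and the ventral tegmental area (VTA) at 1 and 28 days and from the PFC at 1 day. All 12 PFC libraries are labelled wild type and C57BL/6, and the methods describe adult male and female C57BL/6J mice, 8 to 10 weeks old, with tissue taken by micro-punch. Both groups went through the same daily sessions and differ in the infused agent, cocaine or saline. The sources used here do not say whether a library is 1 mouse or a pool, so p-values measure the spread between libraries. The labels give no sex per library, and in all 12 libraries Xist, which is transcribed from the inactive X chromosome of females, was at 0 to 0.127 CPM, that is, reads on the gene scaled to a common library size of 1e+06.

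The PFC sends glutamatergic projections to the NAc and VTA and takes part in the control of drug seeking, which persists or grows during abstinence from cocaine. A punch of it holds excitatory neurons of upper layers, which project mainly within the cortex, and of deep layers, which project to thalamus, brainstem and striatum, together with interneurons, glia and vessels. In such bulk tissue, fewer cells of a type and less RNA per cell cannot be told apart.

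The libraries held 30078152 to 48936621 reads on genes, and the 10 most abundant genes took 3.78% to 5.19% of them. Saline library 4 stood apart. The summed level of 20 genes of striatal medium spiny neurons, the projection neurons of the striatum, was 5492 CPM in it and 591 to 741 CPM in the other 11 libraries. Its 5 red blood cell genes summed to 331 CPM against 46.4 to 101 CPM elsewhere, and its 10 cortical excitatory neuron genes to 6675 CPM against 7049 to 8435 CPM. The cortical markers, Camk2a among them (3695 to 4451 CPM (median 4178) after cocaine, 3412 to 4066 CPM (median 3847) after saline), were abundant in all 12 libraries, and the striatal markers were abundant in 1. Values without saline library 4 are given beside the groups of genes described first. They are also given beside most of the named genes for which leaving it out changed a value in 1 of 2 ways. It moved a log2 fold change printed here by over 1.5 times, or it ended an unadjusted p under 0.05.

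**Figure D1:**
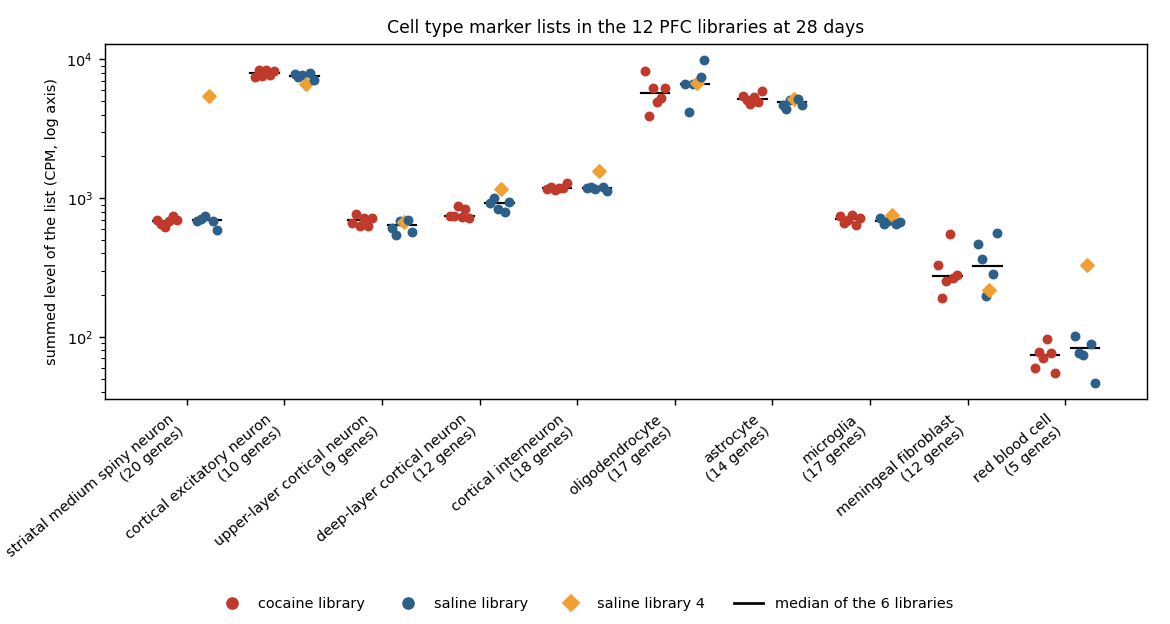
Summed level of 10 cell type marker lists (CPM, log axis) in each of the 12 PFC libraries at 28 days, with cocaine libraries in red, saline libraries in blue, saline library 4 as an orange diamond and the median of each group of 6 as a line. Saline library 4 lies at 5492 CPM for the striatal list, where the other libraries lie between 591 and 741 CPM, and the 2 groups overlap for every list shown.

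No gene passed an adjusted p of 0.05 (edgeR quasi-likelihood test, Benjamini-Hochberg adjustment) among 16340 tested, with all libraries or, among 16361 tested, without saline library 4 (0% called in both). The genes with the smallest p-values were Trpc6, a cation channel gene higher after cocaine, and Gm7964, a copy of the RNA-binding protein gene Hnrnpk that was lower, each with an adjusted p of 0.392, and the next smallest adjusted p was 0.842. At an unadjusted p under 0.05, 440 genes were higher (2.69%) and 485 lower (2.97%) after cocaine, 5.66% in all. Without saline library 4 these were 381 (2.33%) and 370 (2.26%), 4.59% in all, and 547 genes were under 0.05 in the same direction in both fits. Where no gene differs, a share of about 0.05 of the tested genes is expected under this threshold. Both totals lie near that share, so an unadjusted p under 0.05 does not by itself mark a gene as changed. DESeq2, fitted to 23400 genes, called 2, Trpc6 and Gm7964, with 1022 genes at an unadjusted p under 0.05. Among the 16340 genes of the main test, DESeq2 had 455 higher and 480 lower at that threshold. On the same 16340 genes, limma-voom called 0 with 919. The edgeR robust likelihood ratio test, which the study's methods also list, called 9, among them Trpc6, Gm7964, Chrdl1, Acvr1c, Vwf and Lcn2. On simulated counts with the spread of these libraries, the main test recovered 78% of genes changed 1.5-fold and 97% of genes changed 2-fold.

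Since none of the differences passed the adjusted test, genes are described by their levels and by log2 fold changes of cocaine against saline ± SE, each with its unadjusted edgeR p. Trpc6 encodes a receptor-operated calcium-permeable channel. Its level was 11.1 to 13.7 CPM (median 12.1) after cocaine and 6.21 to 9.73 CPM (median 8.07) after saline, so that all 6 cocaine libraries lay above all 6 saline libraries. The log2 fold change was 0.58 ± 0.102 (unadjusted p = 4.8e-05), and 0.51 without saline library 4 (unadjusted p = 3.5e-05). DESeq2 gave an adjusted p of 0.0014 with all libraries and 6.0e-04 without saline library 4. Such separation of the groups in the upward direction was found for 17 of 16340 genes (0.104%) and downward for 21 (0.129%). With 6 libraries in each group, some of so many genes separate by chance, and genes chosen for a small p separate more often. Separation, here and below, therefore describes the levels and is not evidence apart from the p-value.

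Among the other 9 genes with the smallest p in the upward direction, the groups separated for Chrdl1, Etnk2 and Etv4. Chrdl1, a secreted antagonist of bone morphogenetic proteins that astrocytes make, was at 18.6 to 22.3 CPM (median 20.3) after cocaine and 11.5 to 17.7 CPM (median 15) after saline (log2 fold change 0.41 ± 0.0931, unadjusted p = 5.8e-04, and 0.34 without saline library 4). Etnk2, an ethanolamine kinase of phospholipid synthesis, was at 11 to 14.6 CPM (median 12.3) and 6.89 to 10.7 CPM (median 9.63) (0.41 ± 0.102, unadjusted p = 0.00117, and 0.33 without saline library 4). Etv4, an ETS transcription factor downstream of growth factor signalling, was at 7.7 to 9.85 CPM (median 8.72) and 6.21 to 7.54 CPM (median 7.25) (0.31 ± 0.0818, unadjusted p = 0.00181, and 0.31 without saline library 4). For Chrdl1 and Etnk2, saline library 4 was the lowest of the 12.

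The groups overlapped for the other 6 upward genes. Acvr1c, the activin receptor-like kinase ALK7, was at 20.2 to 21.8 CPM (median 21.3) after cocaine and 14.9 to 20.5 CPM (median 17) after saline (0.30 ± 0.0698, unadjusted p = 7.1e-04, and 0.31 without saline library 4). Dio2, the deiodinase that makes active thyroid hormone in astrocytes, was at 59.6 to 83.7 CPM (median 69.5) and 41.6 to 65.1 CPM (median 54) (0.36 ± 0.0971, unadjusted p = 0.00217, and 0.36 without saline library 4). The log2 fold changes were 0.26 ± 0.0695 for Ap3s1, a subunit of the AP-3 adaptor complex, 0.28 ± 0.0756 for Med21, a subunit of Mediator, 0.50 ± 0.132 for 1110002E22Rik and 1.22 ± 0.33 for Gm14933. Gm14933 is a pseudogene at 0.907 to 4.68 CPM that lies within Hsf3 on the same strand, and Acvr1c, Dio2, Med21 and 1110002E22Rik overlap genes on the opposite strand, whose reads cannot be told apart where strand was not used in counting.

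**Figure D2:**
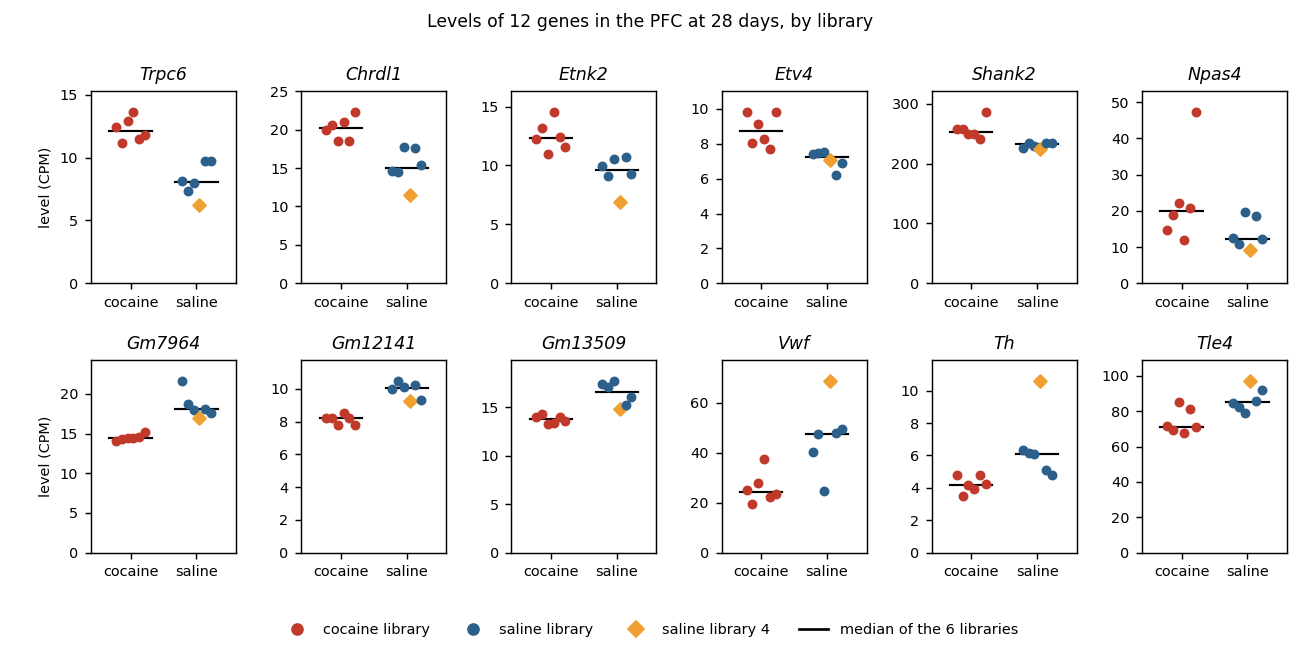
Level (CPM) of 12 genes in each PFC library at 28 days, with cocaine libraries in red, saline libraries in blue, saline library 4 as an orange diamond and the group median as a line. The groups do not overlap for Trpc6, Chrdl1, Etnk2, Etv4, Shank2, Gm7964, Gm12141 and Gm13509, and they overlap for Npas4, Vwf, Th and Tle4.

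In the downward direction, 8 of the 10 genes with the smallest p were near-identical copies of other genes, that is, at least 98% identical to a coding transcript of another gene over at least 90% of their exon sequence. Only tested pseudogenes and the 10 genes with the smallest p in each direction were compared with coding transcripts. The share of near-identical copies among all tested genes is therefore not known, and 5.28% of the tested genes were annotated as pseudogenes. Such copies mostly arise when a messenger RNA is copied back into the genome. The differing bases are few, as 60-base windows of 3 of them show beside the coding transcript they match (genome NCBIM37, which is mm9; 5′ to 3′ on the gene's strand; capitals mark the bases that differ).
Gm7964, chr7:90905671-90905730, plus strand: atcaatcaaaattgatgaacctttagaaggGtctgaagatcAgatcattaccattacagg
Hnrnpk, chr13:58494602-58494661, minus strand: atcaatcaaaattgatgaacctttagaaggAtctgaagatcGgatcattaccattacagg
Gm12141, chr11:41312336-41312395, plus strand: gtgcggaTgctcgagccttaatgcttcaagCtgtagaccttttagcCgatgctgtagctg
Hspd1, chr1:55143627-55143686, minus strand: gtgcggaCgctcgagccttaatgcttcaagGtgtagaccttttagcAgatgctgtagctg
Gm13509, chr2:49164015-49164074, plus strand: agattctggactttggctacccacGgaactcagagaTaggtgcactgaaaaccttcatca
Ap2m1, chr16:20540406-20540465, plus strand: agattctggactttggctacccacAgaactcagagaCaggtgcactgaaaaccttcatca
Each window was chosen for holding the most differing bases within an exon's coding sequence, and differences outside it are not shown. A read that covers no differing base matches the copy and its coding gene alike. How such reads were counted is not given in the sources used here, which makes the counts of the copies uncertain.

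Gm7964 (chr7:90904414-90905866) was 98.9% identical to Hnrnpk over 1395 bases. Its level was 14.1 to 15.2 CPM (median 14.5) after cocaine and 17 to 21.6 CPM (median 18.1) after saline, and all cocaine libraries lay below all saline libraries. The log2 fold change was -0.35 ± 0.061 (unadjusted p = 4.3e-05), -0.37 without saline library 4 (unadjusted p = 2.4e-05), and DESeq2 gave an adjusted p of 0.00173. Hnrnpk itself was at 300 to 322 CPM after cocaine and 290 to 340 CPM after saline, with a log2 fold change of -0.037 ± 0.0447 (unadjusted p = 0.423). Gm7964 thus stood at 4.5% to 5.06% of its coding gene's level in the cocaine libraries and at 5.24% to 6.97% in the saline libraries, with no overlap.

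The same held for Gm12141, a pseudogene 99% identical to Hspd1, which encodes a mitochondrial chaperonin. Gm12141 was at 7.79 to 8.5 CPM (median 8.24) after cocaine and 9.28 to 10.5 CPM (median 10.1) after saline (-0.28 ± 0.0591, unadjusted p = 2.3e-04, and -0.30 without saline library 4), again without overlap. Its coding gene had a log2 fold change of 0.027 ± 0.0449 (unadjusted p = 0.552). Gm13509, 99.7% identical to the clathrin adaptor gene Ap2m1, was at 13.2 to 14.3 CPM (median 13.8) and 14.8 to 17.7 CPM (median 16.6) (-0.25 ± 0.0579, unadjusted p = 5.7e-04, and -0.28 without saline library 4), while Ap2m1 was at 554 to 633 CPM and 542 to 647 CPM. The remaining 5 copies were Rpl23a-ps3 (-0.64 ± 0.133), Gm10275 (-0.52 ± 0.126), Gm3788 (-0.62 ± 0.151), Gm10145 (-0.54 ± 0.13) and Gm8325 (-0.36 ± 0.0873), which match Rpl23a, Rpl12, Tmsb10, Ube2l3 and Ube2v1. Without saline library 4, DESeq2 also called Gm3788, with an adjusted p of 0.0327.

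Over all 350 tested pseudogenes that are near-identical to a coding transcript, a class defined after these genes were seen, 67 were lower and 1 was higher at an unadjusted p under 0.05 (19.1% and 0.286%, against 2.97% and 2.69% of all genes). Their median log2 fold change was -0.14, and 268 of 350 were below 0, beside a median of 4.2e-04 over all genes. Gm7964 and Rpl23a-ps3 are annotated as protein-coding and are not among the 350. Without saline library 4 the counts were 55 lower and 5 higher of 348, with a median of -0.12. Without saline library 1 they were 41 lower and 2 higher of 350, with a median of -0.094, where 2.63% of all genes were lower and 2.1% higher. The 513 other pseudogenes had a median of -0.094, with 42 lower and 9 higher. The 254 coding genes that the near-identical pseudogenes match had a median of -0.0040, with 7 lower and 11 higher.

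The copies moved together across libraries, so their count is not a count of independent genes. Against each copy's mean over the 12 libraries, the median level of the 350 was 0.32 log2 units higher in saline library 1, 0.17 in saline library 4 and 0.081 in saline library 2. In saline libraries 3, 5 and 6 it was between -0.046 and -0.012, and in the cocaine libraries between -0.13 and -0.015. Saline libraries 1, 2 and 4 thus lay above the cocaine libraries by more than saline library 3, which was just above the highest of them, and saline libraries 5 and 6 lay among them. In the summed level of the 350 copies, the more abundant ones weigh more. It was 1045 to 1111 CPM (median 1093) after cocaine and 1121 to 1410 CPM (median 1165) after saline, without overlap. The 10 most abundant genes took 3.97% of the reads in saline library 1, 3.78% in saline library 2 and 4.8% in saline library 4, against 4.34% to 5.19% in the others. The part of these shares in the result was not tested.

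**Figure D3:**
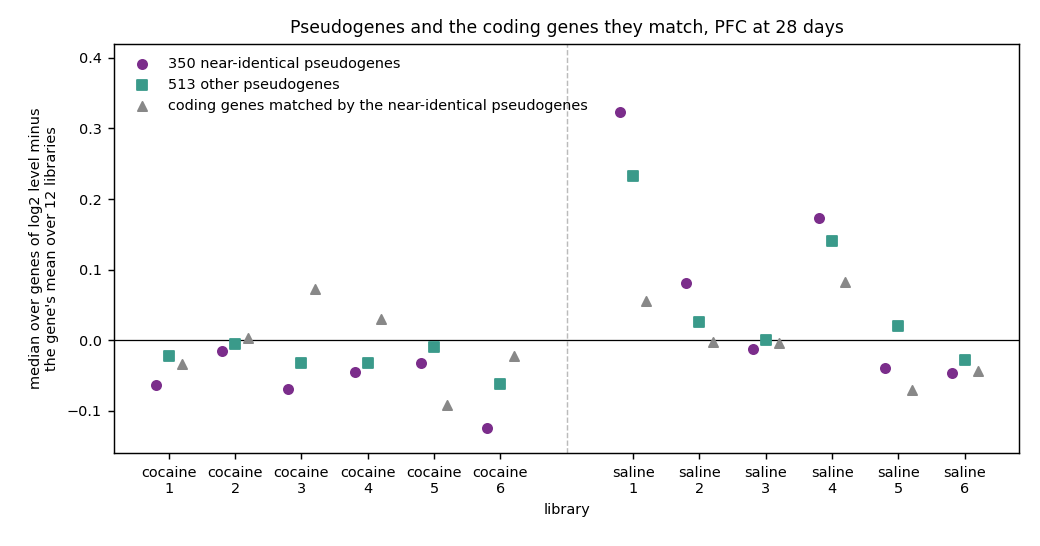
For each PFC library at 28 days, the median over genes of the log2 level minus that gene's mean over the 12 libraries, for 350 pseudogenes near-identical to a coding transcript (purple circles), 513 other pseudogenes (green squares) and the coding genes that the near-identical pseudogenes match (grey triangles). Saline library 1 reaches 0.32 and saline library 4 reaches 0.17 for the near-identical pseudogenes, while the cocaine libraries lie between -0.13 and -0.015.

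The remaining 2 of the 10 downward genes were Vwf and B020018G12Rik. Vwf, the von Willebrand factor made by endothelium, was at 19.5 to 37.4 CPM (median 24.2) after cocaine and 24.5 to 68.8 CPM (median 47.6) after saline. The groups overlapped at 1 saline library, and saline library 4 was the highest of the 12. The log2 fold change was -0.84 ± 0.198 (unadjusted p = 7.4e-04), and -0.69 without saline library 4. The list of 13 endothelial markers had a median of -0.022, with 0 members at an unadjusted p under 0.05. B020018G12Rik, which lies within Pld5 on the same strand, was at 0.762 to 1.16 CPM (median 0.953) and 1.32 to 1.64 CPM (median 1.36) (-0.60 ± 0.143, unadjusted p = 8.2e-04).

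Most markers of deep cortical layers were at lower levels after cocaine. Of 12 markers, 11 had a negative log2 fold change, 7 of them at an unadjusted p under 0.05, with a median of -0.35, where 2.97% of all genes were lower. Without saline library 4, 11 were negative, 8 at an unadjusted p under 0.05, with a median of -0.21, where 2.26% of all genes were lower. None passed the adjusted test. The summed level of the list was 719 to 884 CPM (median 739) in the cocaine libraries and 796 to 1155 CPM (median 930) in the saline libraries, so the groups overlapped, also without saline library 4, which was the highest.

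Tle4, a corepressor of layer 6 corticothalamic neurons, was at 67.5 to 85.2 CPM (median 71.3) after cocaine and 79 to 97.2 CPM (median 85) after saline (-0.22 ± 0.0673, unadjusted p = 0.00477, and -0.19 without saline library 4). Syt6, a synaptotagmin, was at 29.9 to 43.5 CPM (median 33.5) and 37.5 to 81.2 CPM (median 43.3) (-0.49 ± 0.167, unadjusted p = 0.00998, and -0.30). Foxp2, a forkhead factor of layer 6, was at 10.9 to 20.5 CPM (median 14.5) and 14.5 to 34.5 CPM (median 19) (-0.49 ± 0.191, unadjusted p = 0.0222, and -0.29 with unadjusted p = 0.0555). Bcl11b, also known as Ctip2, which specifies subcortical projection neurons, was at 63.1 to 75.4 CPM (median 67.8) and 66.1 to 161 CPM (median 76.9) (-0.43 ± 0.175, unadjusted p = 0.0267, and -0.21). Foxp2 and Bcl11b are also expressed in striatal neurons, and for all 4 genes saline library 4 was the highest of the 12. Nxph4 (-0.51 with all libraries, -0.54 without saline library 4) and Ctgf (-0.37 and -0.45), which mark layer 6b, did not shrink towards 0 without that library, whereas Pcp4 (-0.33 and -0.15) did. Fezf2, the master regulator of corticospinal identity, was at -0.098 and -0.19, and Etv1, a marker of layer 5, at 0.033 and 0.0060.

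Most upper-layer markers lay in the other direction. Of 9 markers, 6 were positive, 3 at an unadjusted p under 0.05 (2 without saline library 4), with a median of 0.10. The share of all genes that were higher was 2.69% (2.33% without saline library 4). Rasgrf2, a Ras exchange factor of layer 2/3, was at 174 to 198 CPM (median 190) after cocaine and 133 to 191 CPM (median 156) after saline (0.23 ± 0.0769, unadjusted p = 0.00953). Stard8 was at 29.8 to 44.1 CPM (median 39.2) and 26.8 to 36.1 CPM (median 31.3) (0.29 ± 0.0964, unadjusted p = 0.00979). Cux2, a homeodomain factor of upper layers, was at 95.6 to 112 CPM (median 103) and 70.9 to 110 CPM (median 89.9) (0.20 ± 0.0838, unadjusted p = 0.0346, and 0.13 with unadjusted p = 0.0636 without saline library 4). The groups overlapped for all 3 genes. With the mean level of the deep-layer markers as a covariate, 453 genes were at an unadjusted p under 0.05 in place of 925. The log2 fold changes of Stard8 and Cux2 were then -0.029 and -0.036. The summed deep-layer level had a median of 739 CPM after cocaine and 930 CPM after saline, with saline library 4 highest. The covariate thus follows treatment and that library in part, so this fit cannot separate layer markers from treatment.

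**Figure D4:**
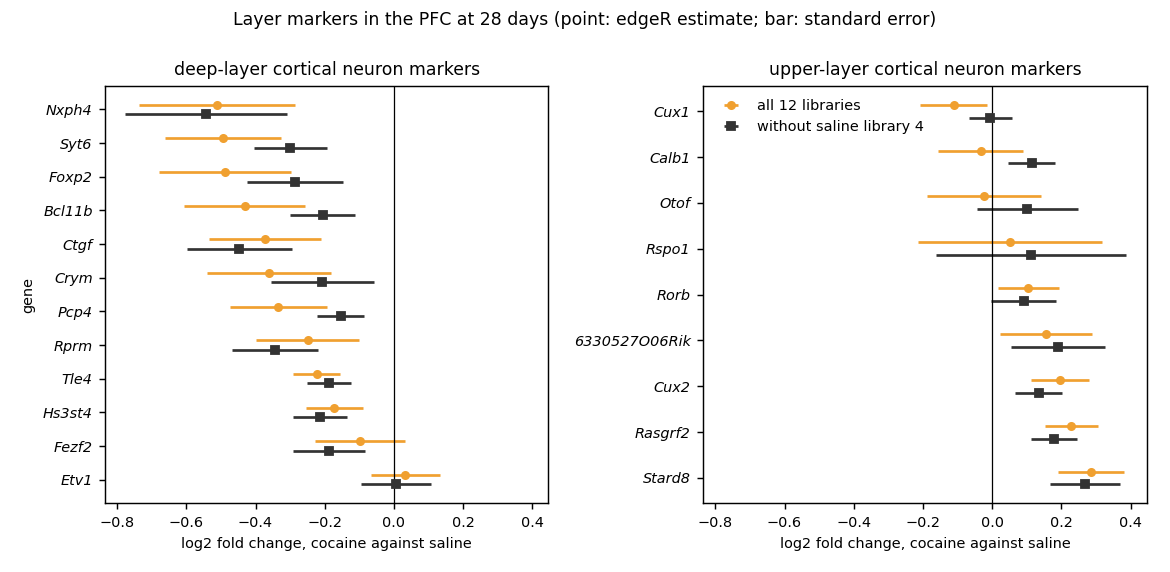
Log2 fold change of cocaine against saline (edgeR, bars are SE) in the PFC at 28 days for 12 deep-layer and 9 upper-layer cortical neuron markers, with all 12 libraries in orange and without saline library 4 in black. All deep-layer markers but Etv1 lie below 0 in both fits, from -0.51 to -0.098 with all libraries.

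Of the genes of other cell types, 19 striatal markers had a median of -1.43 with 11 lower at an unadjusted p under 0.05, where 2.97% of all genes were lower. Without saline library 4 their median was 0.026 with 0 lower, where 2.26% of all genes were lower. Adora2a, the adenosine receptor of indirect-pathway neurons, was at 2.3 to 5.38 CPM (median 3.68) after cocaine and 3.16 to 151 CPM (median 3.8) after saline, where saline library 4 held 151 CPM and the others at most 5.44 CPM. Its log2 fold change was -2.96 ± 0.995 with all libraries and -0.071 without saline library 4. Penk, which encodes the enkephalin precursor, was at 720 CPM in saline library 4 and at 20.5 to 46.5 CPM in the other 11 libraries. For Drd2, the D2 dopamine receptor, the values were 118 CPM and 2.2 to 7.38 CPM. The striatal differences of the full comparison thus rest on 1 library.

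Interneuron markers included 4 of 18 higher and 0 lower at an unadjusted p under 0.05 (3 higher without saline library 4), with a median of -0.0089. Over all genes, 2.69% were higher and 2.97% lower (2.33% and 2.26% without saline library 4). The 4 were Htr3a, the ionotropic serotonin receptor (0.36 ± 0.119, unadjusted p = 0.00851), and the peptide genes Vip (0.31 ± 0.114, unadjusted p = 0.0151), Crh (0.26 ± 0.111, unadjusted p = 0.036) and Tac2 (0.22 ± 0.1, unadjusted p = 0.045, and 0.16 with unadjusted p = 0.1 without saline library 4). Vip was at 34.7 to 44 CPM (median 40.1) after cocaine and 21.6 to 38 CPM (median 34.3) after saline, with saline library 4 lowest. Among 17 microglial genes, 3 were higher (4 without saline library 4) and 0 lower, with a median of 0.012, namely P2ry12 (0.20 ± 0.0664), Siglech (0.15 ± 0.0677) and Gpr34 (0.32 ± 0.142). All 17 oligodendrocyte genes were below 0, with a median of -0.24, but none was at an unadjusted p under 0.05, and their summed level overlapped (3928 to 8295 CPM after cocaine, 4167 to 9927 CPM after saline). All 14 astrocyte genes were above 0, with a median of 0.069 and none at an unadjusted p under 0.05. Without saline library 4, 13 were above 0 and Gfap was below it (-0.071), with a median of 0.096 and again none under that threshold.

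Genes induced by neuronal activity lay mostly above 0 in log2 fold change, with summed levels that overlapped between the groups. Of 28 activity-regulated genes, 22 had a positive log2 fold change, 3 at an unadjusted p under 0.05 and 0 lower, with a median of 0.18 (0.19 and 4 higher without saline library 4), where 2.69% of all genes were higher (2.33% without saline library 4). The summed level of the list was 953 to 1890 CPM (median 1202) after cocaine and 929 to 1370 CPM (median 1114) after saline. Cocaine library 6 was the highest, at 1890 CPM, and cocaine libraries 1 and 4 lay below all saline libraries but saline library 2. Npas4, an activity-dependent transcription factor, was at 12 to 47.4 CPM (median 19.8) after cocaine and 9.13 to 19.6 CPM (median 12.3) after saline (0.72 ± 0.289, unadjusted p = 0.0256). Cocaine library 6 held the highest value, and without it the log2 fold change was 0.36. Nrn1, or neuritin, was at 117 to 165 CPM (median 141) and 91.8 to 142 CPM (median 115) (0.29 ± 0.117, unadjusted p = 0.025), and Ptgs2, the inducible cyclooxygenase, at 9.98 to 13.3 CPM (median 12.9) and 7.48 to 13.2 CPM (median 10.1) (0.32 ± 0.12, unadjusted p = 0.0189). Fos (0.51) and Arc (0.64) had larger estimates with unadjusted p of 0.238 and 0.175. Of 12 feedback genes of the ERK pathway, Spred1 (0.19 ± 0.0682, unadjusted p = 0.0162) and Spred3 (0.16 ± 0.051, unadjusted p = 0.00722), which inhibit Ras-ERK signalling, were higher and 0 were lower.

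The nuclear receptor Nr4a1, the study's main gene, and its relatives Nr4a2 and Nr4a3 overlapped between the groups. Nr4a1 was at 53.6 to 158 CPM (median 89.6) after cocaine and 57.3 to 124 CPM (median 77.5) after saline (0.20 ± 0.262, unadjusted p = 0.452). The log2 fold changes of Nr4a2 and Nr4a3 were -0.20 ± 0.159 and -0.072 ± 0.134. The median of the 3 receptors was -0.072, and -0.125 without saline library 4. A further list holds the genes that the study followed by qPCR, which the study chose on its own RNA-seq results and describes for the NAc. A Robo gene among them is named there without its number, so Robo1, Robo2 and Robo3 were all entered here. Over all genes, 2.97% were lower and 2.69% higher at an unadjusted p under 0.05 (2.26% and 2.33% without saline library 4). Of the 16 genes thus listed, 2 were lower and 0 higher at that threshold, and neither remained without saline library 4. These were Cartpt, the precursor of the CART peptide, at 1.38 to 2.29 CPM (median 1.69) and 1.67 to 9.11 CPM (median 2.36) with 9.11 CPM in saline library 4 (-0.92 ± 0.37, unadjusted p = 0.026, and -0.29 without it), and the clock gene Per2 (-0.27 ± 0.126, unadjusted p = 0.0488, and -0.15). The other 14 listed genes ranged in log2 fold change from -0.48 for Fmo2 to 0.48 for Robo3, where Robo1 was at -0.12 and Robo2 at -0.028.

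Clock genes included 5 of 19 lower at an unadjusted p under 0.05 (3 without saline library 4, with Arntl higher at 0.20), and a median of -0.039. The shares of all genes were 2.97% lower and 2.69% higher (2.26% and 2.33% without saline library 4). Dbp, a clock output factor, was at 57.6 to 89.2 CPM (median 76) after cocaine and 70.0 to 115 CPM (median 95.9) after saline (-0.35 ± 0.119, unadjusted p = 0.00981, and -0.28 without saline library 4). Bhlhe41, a repressor of the clock also known as Dec2, was at 23.6 to 29.3 CPM (median 27.9) and 26.4 to 43.1 CPM (median 32.5) (-0.31 ± 0.105, unadjusted p = 0.00975, and -0.22). For Cry1 (-0.23 ± 0.0939, and -0.14 without it), saline library 4 was the highest of the 12. Of 20 glucocorticoid-responsive genes, 17 were negative, 3 of them at an unadjusted p under 0.05 (2 without saline library 4), and 1 was higher, with a median of -0.15. Lcn2, the acute-phase protein lipocalin 2, was at 0 to 0.393 CPM (median 0.105) and 0.375 to 3.88 CPM (median 0.565) with its highest value in saline library 1 (-2.98 ± 0.705, unadjusted p = 7.6e-04), levels that rest on few reads. Ddit4 (-0.20 ± 0.0754) and Mt1 (-0.21 ± 0.0859, and -0.15 with unadjusted p = 0.0666 without saline library 4) were the other 2 lower genes and Cdkn1a (0.20 ± 0.0786) the higher one.

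Of 12 dopamine receptor and metabolism genes, 5 were lower at an unadjusted p under 0.05, where 2.97% of all genes were. Without saline library 4, 1 was lower, where 2.26% of all genes were. That gene was Th, tyrosine hydroxylase, the rate-limiting enzyme of dopamine synthesis. Th was at 3.48 to 4.82 CPM (median 4.18) after cocaine and 4.81 to 10.6 CPM (median 6.11) after saline, with saline library 4 highest (-0.63 ± 0.169, unadjusted p = 0.00213, and -0.43 with unadjusted p = 0.00128 without saline library 4). The ranges met at 1 library of each group. Drd1a, the D1 dopamine receptor, was at 15.5 to 20.2 CPM (median 15.9) and 17.8 to 118 CPM (median 18.4) (-1.08 ± 0.445, and -0.17 without saline library 4).

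In the synaptic and channel lists, few members were at an unadjusted p under 0.05, where 2.69% of all genes were higher and 2.97% lower. Shank2, a postsynaptic scaffold, was at 241 to 287 CPM (median 254) after cocaine and 225 to 235 CPM (median 232) after saline, without overlap (0.15 ± 0.0448, unadjusted p = 0.00364, and 0.15 without saline library 4), and was the 1 of 15 scaffold genes at an unadjusted p under 0.05 (2 without saline library 4). Gabra2, a GABA-A receptor subunit (0.20 ± 0.0922, unadjusted p = 0.0461), was the 1 of 13 in its list. Cacna1g, the T-type calcium channel subunit (0.25 ± 0.0952, and 0.17 without saline library 4), and Cacna2d1, the auxiliary subunit that gabapentin binds (0.19 ± 0.0815, and 0.14 with unadjusted p = 0.0631), were the 2 higher of 29 voltage-gated sodium and calcium channels, and saline library 4 was the lowest of the 12 for both. Of 77 potassium channel genes, 3 were higher, Kcnj16 (0.25 ± 0.0926) among them, and 1 was lower. In the lists of 16 AMPA receptor subunits and auxiliary proteins, 8 NMDA and delta receptors, 23 histone deacetylases and methyltransferases, 15 DNA methylation genes, 19 interferon-responsive genes, 16 heat shock proteins and 7 neurotrophins and receptors, 0 members were at an unadjusted p under 0.05, also without saline library 4 but for 1 of the NMDA and delta receptors. Of 77 cytosolic ribosomal protein genes, 3 were lower (0 without saline library 4), with a median of -0.036.

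**Figure D5:**
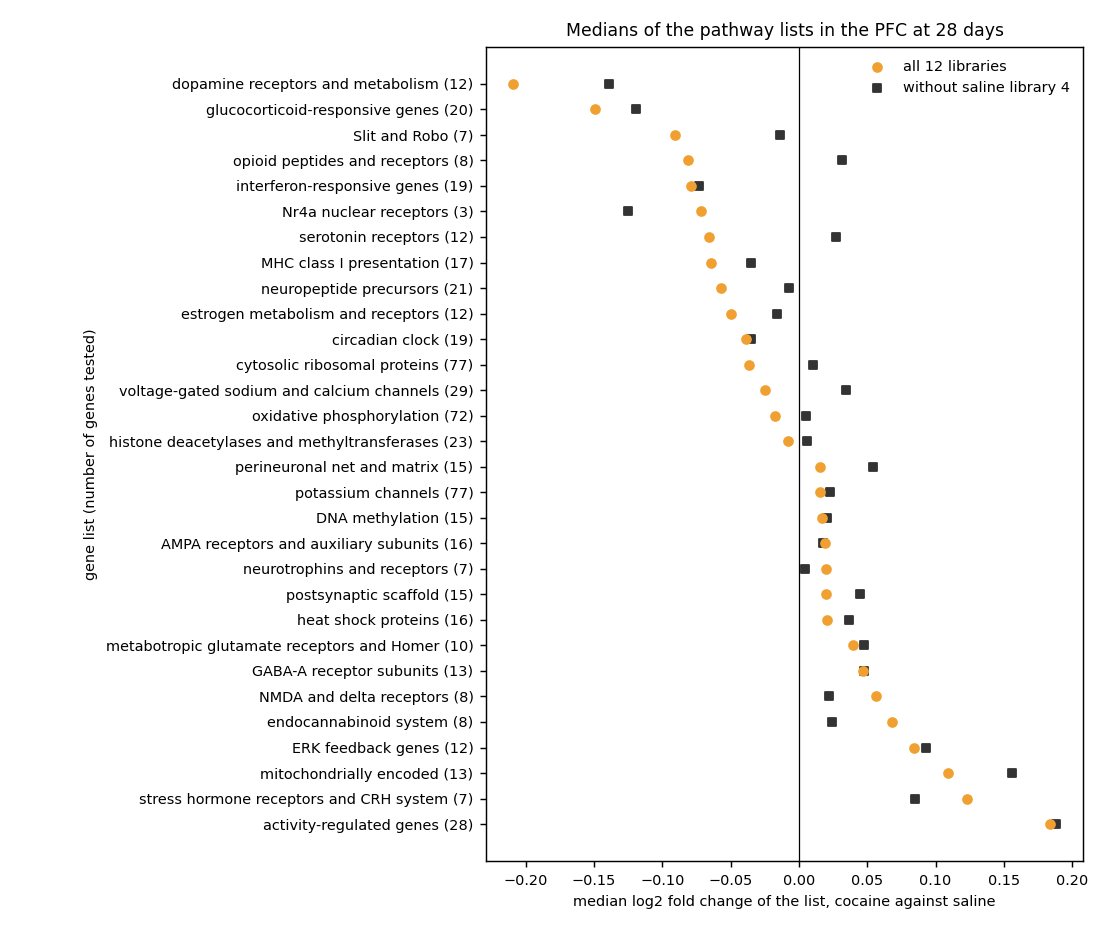
Median log2 fold change of cocaine against saline in the PFC at 28 days for each pathway list, with the number of genes tested in brackets, with all 12 libraries (orange circles) and without saline library 4 (black squares). The activity-regulated genes have the highest median, 0.18 and 0.19, and the dopamine list moves from -0.21 to -0.14 without saline library 4.

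The cocaine effect in the PFC was set against that in the NAc and VTA at the same time point in models over both regions, which share the PFC libraries. Whether the regions came from the same mice is not given in the labels. No gene passed an adjusted p of 0.05 for a difference of effects (edgeR), among 16908 against the NAc (1071 at an unadjusted p under 0.05, 6.33%) or 17456 against the VTA (1731, 9.92%), while DESeq2 called 7 and 36. On simulated counts, again with 200 changed genes, the edgeR test recovered 66% of genes changed 2-fold in the PFC cocaine libraries against the NAc, and 45% against the VTA. With fewer changed genes the adjusted threshold is harder to pass. Irs2, an adaptor of insulin signalling, had the smallest p against the NAc, with a log2 fold change of -0.22 ± 0.0685 in the PFC and 0.33 ± 0.0699 in the NAc (difference -0.54 ± 0.101, adjusted p = 0.249 by edgeR and 0.0023 by DESeq2). Lrrn3 (difference -0.51) and Cks2 (1.18) followed. Against the VTA the smallest p were those of Grid1, the delta glutamate receptor 1 (-0.11 in the PFC and 0.38 in the VTA), Zfp831 (0.023 and 1.20) and Ppp1r13b (-0.13 and 0.18).

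The genes described above had the same sign in all 3 regions for some and not for others. For Trpc6 the log2 fold change was -0.38 in the NAc (difference at an unadjusted edgeR p of 6.2e-04, adjusted p = 0.44) and 0.27 in the VTA (0.53, adjusted p = 0.85). Gm7964 was at 0.12 in the NAc (1.2e-04 for the difference, adjusted p = 0.33) and 0.026 in the VTA (1.9e-04, adjusted p = 0.27). Both genes were chosen for their small p in the PFC, and the tests of a difference use the same PFC libraries. Small unadjusted p-values for their differences are thus partly built in. Vwf was at -0.71 in the NAc and -1.51 in the VTA, and Lcn2 at -2.01 and -2.19, the same sign as in the PFC. For 4 of the 12 deep-layer markers the effect was lower in the PFC than in the NAc at an unadjusted p under 0.05, and for 4 of 12 than in the VTA, against 3.68% and 5.29% of all genes. Without saline library 4 these were 3 and 3 of 12, against 3% and 4.95% of all genes. Of the 350 near-identical pseudogenes, 47 were lower in the PFC than in the NAc (13.4%) and 36 than in the VTA (10.3%). Without saline library 4 these were 42 (12%) and 36 (10.3%). Within the NAc their median log2 fold change was 0.00865, with 7 of 338 lower and 10 higher, where 3.42% and 3.34% of all genes were. Within the VTA it was -0.079, with 7 of 348 lower and 7 higher, where 6.39% and 5.08% of all genes were.

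At 1 day of abstinence, the PFC table holds RPKM (reads scaled by gene length and library size) and was normalized separately, so values are set side by side without a test. limma called 1 of 14427 genes (0.00693%), and 598 were at an unadjusted p under 0.05 (4.15%). The called gene was Plin4, a lipid droplet protein, with a log2 fold change of 2.17 at 1 day. At 28 days that of Plin4 was -0.63 ± 0.357, and -0.28 without saline library 4, where its saline level was highest. Trpc6 was at -0.18 at 1 day, Chrdl1 at 0.014, Th at -0.25 and Gm7964 at 0.064. The 12 deep-layer markers had a median of -0.0044 at 1 day with 0 at an unadjusted p under 0.05, and the 308 near-identical pseudogenes tested had a median of 0.043 with 6 lower and 12 higher, beside 2.5% and 1.64% of all genes. Of 18 glucocorticoid-responsive genes, 11 were higher at 1 day at an unadjusted p under 0.05 with a median of 0.30, where the median at 28 days was -0.15.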

How the data were processed

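RNA-seq was measured in PFC micro-punches, and reads were aligned with STAR 2.4.1d to mm9 with the Ensembl annotation, per the submitters' processing notes and the methods. The authors deposited raw counts of reads per gene for the 28-day tables, without normalization, and RPKM for the PFC at 1 day. Strand use, read counter and treatment of reads with several matches are not given in the sources used here. Columns of fold changes and p-values in the tables were not used, nor were 24 columns of values per library that belong to no sample analysed here. The 28-day column names give the group but not the labelled sample, so a library is known here by group and column number alone. No 2 libraries of a group agreed within sampling noise (chi-square per degree of freedom at least 7.14 over 30 pairs).

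In R 4.3.3, the counts entered edgeR 4.0.16 with filterByExpr (minimum count 10, minimum total 15), TMM scaling, glmQLFit and glmQLFTest of cocaine against saline within the PFC table, with Benjamini-Hochberg adjustment and an adjusted p under 0.05 as the call. SEs were computed from the F statistic. Differences of effects between regions were interaction terms over both tables. For the PFC at 1 day, limma 3.58.1 was fitted to log2(RPKM + 0.1), keeping genes whose mean RPKM was 0.5 or more. Alternatives included DESeq2 1.42.0, limma-voom and the robust likelihood ratio test. The main test was tested on simulated data with 200 changed genes among 15274. The tests of differences of effects had 200 among 15475 (NAc) and 15513 (VTA). Gene positions and biotypes come from GENCODE vM1 on NCBIM37, in which 37310 of 37681 table genes were found. Copies were matched with blastn 2.17.0. Figures and tables were made with Python 3.11.15, pandas 2.3.3, numpy 2.4.6 and matplotlib 3.10.9.

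The genes named are the 10 with the smallest p in each direction at a mean of at least 1 CPM, the genes the study followed by qPCR, and up to 4 members with the smallest p of each of 48 lists, to which other members were added after their values were seen. The qPCR list holds Robo1, Robo2 and Robo3 for a gene given only as Robo. Of 890 list entries, 886 were matched to the table. The comparison, the lists and the class of near-identical copies were chosen with earlier results of these data known.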

Additional observations from a re-analysis of the deposited data

Results flagged for a closer look

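Of 158 groups of 6 libraries (named genes, cocaine and saline apart), 18 had 1 library far from the others by Dixon's ratio, and chance alone flags about 1 in 20. In 14 of them the library was saline library 4. It was the highest saline library for Cartpt (9.11 CPM), Raver2 (20.5 CPM), Mark2 (145 CPM), Adora2a (151 CPM), Gpr6 (43.2 CPM), Tmem90a (113 CPM), Penk (720 CPM), Drd2 (118 CPM), Drd1a (118 CPM), Th (10.6 CPM), Syt6 (81.2 CPM), Foxp2 (34.5 CPM), Cry1 (27.4 CPM), and the lowest for Cacna1g (74.4 CPM). Saline library 1 was the highest for Gm7964 (21.6 CPM) and Lcn2 (3.88 CPM), and cocaine library 6 for Npas4 (47.4 CPM) and Shank2 (287 CPM).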

How the results depend on the processing

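No gene was called by the main edgeR test, and this held when each library was left out in turn (0 to 0 genes called in the 12 fits), without the filter on low counts, with DESeq2 size factors, with limma-voom, without saline library 4, with the striatal or other marker covariates, and with a log2 fold change of at least 0.25 or an adjusted p under 0.25 (0 each). DESeq2 called 2 genes, the edgeR robust likelihood ratio test 9, and DESeq2 without saline library 4 called 3. Genes at an unadjusted p under 0.05 numbered 925, between 699 (without cocaine library 2) and 1232 (without saline library 5) when 1 library was left out, and 453 with the deep-layer marker covariate. Without the near-identical copies there were 854. For the difference of effects, DESeq2 called 7 genes against the NAc and 36 against the VTA where edgeR called 0, also with 1 library left out (0 to 0 for each region). At 1 day in the PFC, limma called 1 gene, and 0 to 2 with 1 library left out. Libraries with the same column number did not pair: the correlations of their deviations were -0.11 to 0.077, 0 of 6 correlated best with its own number, and the replicate block gave 0 called genes and 813 at an unadjusted p under 0.05. A covariate for the sex-linked genes was not run because no library differed in them. Of 936 log2 fold changes of the 78 named genes under other settings, 891 kept direction and side of the threshold, 12 passed it and 33 turned. Under the deep-layer marker covariate, the log2 fold change turned for Nr4a1 (-0.13), Ccdc141 (-0.028), Mertk (-0.030), Raver2 (0.018), Mark2 (0.014), Robo1 (0.097), Adora2a (0.27), Gpr6 (0.019), Tmem90a (0.44), Drd2 (0.75), Drd1a (0.11), Camk2a (-0.025), Stard8 (-0.029), Cux2 (-0.036), Syt6 (0.025), Foxp2 (0.12), Bcl11b (0.047), Nrn1 (-0.023). Under limma-voom, the log2 fold change turned for Cbl (-0.016). Under the robust likelihood ratio test, the log2 fold change turned for Raver2 (0.016). Under the fit without saline library 4, the log2 fold change turned for Raver2 (0.055), Kirrel2 (0.045), Robo2 (0.0089), Drd2 (0.12). Under DESeq2 without saline library 4, the log2 fold change turned for Raver2 (0.055), Kirrel2 (0.044), Robo2 (0.0085), Drd2 (0.13). Under the striatal marker covariate, the log2 fold change turned for Raver2 (0.048), Kirrel2 (0.046), Robo2 (0.0077), Penk (0.018), Drd2 (0.046). With 1 library left out, the fold change turned for Cbl (-0.060 to 0.079), Raver2 (-0.094 to 0.055), Kirrel2 (-0.22 to 0.045), Robo2 (-0.063 to 0.015), Drd2 (-2.83 to 0.12). The covariates for meningeal, oligodendrocyte and deep-layer markers, the removal of near-identical copies and DESeq2 without saline library 4 were chosen after seeing the data, and the causes of these changes were not tested. Precision limits the comparison to differences well above the median SE of 0.0766 log2 units of genes at 1 CPM or more.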
